A study of Mus musculus with 6 samples.

Results

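Vomeronasal receptors detect pheromones in the sensory neurons of the vomeronasal organ, a chemosensory organ in the floor of the nasal cavity. The V1R family, encoded by Vmn1r genes, comprises G protein-coupled receptors with a short extracellular end, and the V2R family, encoded by Vmn2r genes, comprises receptors with a long extracellular domain that binds peptides and proteins. Both families expanded in the mouse by tandem duplication into dense gene clusters that hold many pseudogenes, and the genes are silent outside sensory tissue. The contacts these clusters made were examined here in B-cell progenitors with and without the transcription factor Erg.

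The regions were the bins of the deposited region list, each about 100 kb long, that lay on an autosome and held the start of at least 1 Vmn1r or Vmn2r gene, pseudogenes included, and no odorant receptor (Olfr) gene. Of 24067 autosomal bins, 266 met this rule. They held 555 genes, 326 of the V1R and 229 of the V2R family, of which 326 were annotated as protein-coding and 229 were not. Another 6 genes started in 5 bins that also held an odorant receptor gene and were left out. The 266 bins lay on 14 chromosomes in 39 clusters, where bins less than 1 Mb apart were joined, and 16 of the clusters were a bin on its own. V1R genes alone were found in 115 bins, V2R genes alone in 148 and both families in 3, with up to 8 receptor genes in a bin. Another protein-coding gene started in 67 of the bins.

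Contacts were measured by in situ Hi-C, in which DNA ends that lie together in the nucleus are joined and sequenced, so that a read pair records a contact between a pair of places in the genome. There were 6 libraries, 2 of each of 3 genotypes on a background that the labels spell C56BL/6. Erg KO libraries came from mice labelled Rag1CreT/+;Erg fl/fl, in which a Cre active from the common lymphoid progenitor stage deletes the floxed Erg alleles. CreT control libraries came from Rag1CreT/+ mice with intact Erg, and Erg fl/fl control libraries from Rag1Cre+/+;Erg fl/fl mice without the transgene. In all groups, bone marrow depleted of mature lineages was cultured over OP9 stroma for 8 days by the labels (a day less by the methods), supplied with the cytokines SCF, FL and IL7, and B220-positive cells, B220 being a B-lineage marker, were then purified. The study's methods class the Erg KO cells as pre-proB and the wild-type cells as proB cells, so loss of Erg and developmental stage cannot be told apart. Replicate 2 of the Erg KO group and replicate 2 of the Erg fl/fl control group were male and the other 4 libraries female. The libraries held 58335904 and 57259415 read pairs in Erg KO cells, 62155453 and 68085468 in the CreT control and 43924865 and 29014581 in the Erg fl/fl control, and the smallest total is below the range of valid read pairs that the methods give. Read pairs that joined different chromosomes made up 32.3% and 34.6% of Erg KO libraries, 24.7% and 26.8% of CreT and 24.3% and 21.6% of Erg fl/fl control libraries.

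The receptor genes differ widely in how much sequence they share with their neighbours, and reads from near-identical copies cannot be placed. Pairs of related receptors are shown, as the first 120 bases of the last coding exon in the reading direction, with the bases at which the members of a pair differ in capitals. Sequences are from the mm10 (GRCm38) genome. Vmn1r123 at chr7:21162185-21162304 (+) and Vmn1r160 at chr7:22871224-22871343 (+), both of the Vmn1r91 to Vmn1r183 cluster, differ at 1 of the 120 bases and at 4 of the 921 bases of the coding sequence.
Vmn1r123: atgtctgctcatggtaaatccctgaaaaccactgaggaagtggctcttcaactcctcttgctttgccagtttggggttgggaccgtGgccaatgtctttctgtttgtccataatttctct
Vmn1r160: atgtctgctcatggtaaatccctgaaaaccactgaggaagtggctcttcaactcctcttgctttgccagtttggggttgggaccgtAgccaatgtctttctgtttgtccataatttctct

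Among V2R genes, Vmn2r25 at chr6:123823587-123823706 (-) and Vmn2r26 at chr6:124061143-124061262 (+) differ at 3 of these bases and at 73 of 2565 coding bases. Vmn2r81 at chr10:79292946-79293065 (+) and Vmn2r82 at chr10:79395838-79395957 (+), whose cluster is taken up again in the comparison of genotypes, differ at 8 and at 100 of 2595.
Vmn2r25: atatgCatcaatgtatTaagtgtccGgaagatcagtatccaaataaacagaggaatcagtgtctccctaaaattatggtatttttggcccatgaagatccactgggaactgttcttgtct
Vmn2r26: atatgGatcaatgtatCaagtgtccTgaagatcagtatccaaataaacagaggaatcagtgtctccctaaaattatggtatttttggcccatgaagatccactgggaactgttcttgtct
Vmn2r81: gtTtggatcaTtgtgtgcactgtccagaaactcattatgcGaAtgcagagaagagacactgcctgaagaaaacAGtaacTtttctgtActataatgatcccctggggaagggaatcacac
Vmn2r82: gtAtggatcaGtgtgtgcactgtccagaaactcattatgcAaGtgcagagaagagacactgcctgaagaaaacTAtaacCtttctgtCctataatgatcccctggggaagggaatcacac

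The least alike pairs are the V1R genes Vmn1r16 at chr6:57323516-57323635 (-) and Vmn1r29 at chr6:58307297-58307416 (+), with 6 differences here and 65 in 909 coding bases, and the V2R genes Vmn2r109 at chr17:20541326-20541445 (-) and Vmn2r110 at chr17:20574638-20574757 (-), with 21 here and 184 in 2574.
Vmn1r16: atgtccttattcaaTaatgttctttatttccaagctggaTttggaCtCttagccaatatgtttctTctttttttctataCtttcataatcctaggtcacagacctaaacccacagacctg
Vmn1r29: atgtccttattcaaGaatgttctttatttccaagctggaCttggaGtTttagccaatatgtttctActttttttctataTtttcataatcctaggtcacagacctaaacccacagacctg
Vmn2r109: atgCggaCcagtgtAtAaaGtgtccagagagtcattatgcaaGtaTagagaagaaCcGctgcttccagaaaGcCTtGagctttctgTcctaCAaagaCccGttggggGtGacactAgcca
Vmn2r110: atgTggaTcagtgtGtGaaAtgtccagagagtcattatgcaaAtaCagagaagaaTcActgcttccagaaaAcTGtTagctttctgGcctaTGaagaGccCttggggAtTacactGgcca

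Across 208 protein-coding V1R genes the coding sequence had a median length of 921 bases and lay in a lone exon in 206. The 118 protein-coding V2R genes had a median of 2565 coding bases spread over several exons. The Vmn1r91 to Vmn1r183 cluster on chromosome 7 (chr7:19999998-24099865) was the most repetitive large cluster. The median identity of its 65 protein-coding genes to their closest relative was 99.6%, 48 of them exceeded 98%, and 14 had an identical copy. In the Vmn2r90 to Vmn1r-ps150 cluster on chromosome 17 (chr17:17699783-21399854), which holds 36 V2R and 24 V1R genes, the median was 87.6%. Reads from the near-identical copies cannot be assigned to a gene.

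Mappability was measured as the share of 80-base words, the read length in the labels, that occur once in the genome. The 61 vomeronasal bins with under 40% unique words had a median coverage, the total contacts of a bin relative to the autosomal median, of 10.04% in Erg KO and 7.99% in control cells. The medians were 86.8% in Erg KO and 77.0% in control cells over the 77 bins with at least 90% unique words. Over the 266 bins, unique share and coverage had a Pearson correlation of 0.90 and a Spearman correlation of 0.77, given as a description because the bins share libraries and clusters. The 5 bins with the lowest coverage, all on chromosome 7, were those of Vmn1r132, Vmn2r46, Vmn1r137, Vmn1r130 with Vmn1r131, and Vmn1r138 with Vmn1r139. Their mean coverage was 0.106% to 0.236% of the autosomal median, and at most 0.4995% of the words in each were unique. The lowest unique shares, 0 to 0.201%, were those of the bins of Vmn2r46, Vmn1r137, Vmn1r163, Vmn1r132 and Vmn1r135. The 5 bins with the highest coverage each held another protein-coding start. The bin of Vmn2r-ps19 had 213% of the autosomal median in Erg KO and 182% in control cells, followed by Vmn2r-ps91 (157% and 156%), Vmn2r-ps20 (150% and 124%), Vmn1r1 (119% and 130%) and Vmn1r-ps25 (113% and 126%).

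**Figure D1:**
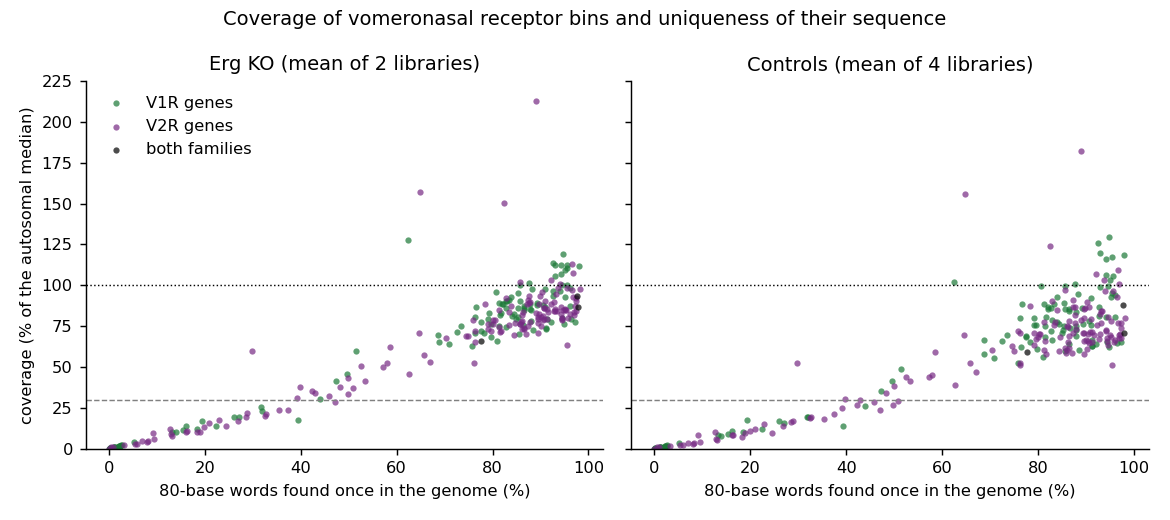
Coverage of each of the 266 vomeronasal receptor bins (y axis, percent of the autosomal median, Erg KO libraries left and controls right) against the percent of its 80-base words that occur once in the genome (x axis), coloured by family. The dashed line marks 30%, below which bins were left out of the contact analyses, and the dotted line 100%. Coverage climbs with the unique share in both panels, and most bins with over 80% unique words sit between 50% and 100%.

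Contacts were analysed in the 204 vomeronasal bins, 85 with V1R and 116 with V2R genes alone, whose coverage lay between 0.3 and 3 times the autosomal median, out of 23649 such autosomal bins. The filter took 26 of the 34 bins of the Vmn1r91 to Vmn1r183 cluster and none of the 32 bins of the Vmn2r90 to Vmn1r-ps150 cluster. The 204 bins were still repetitive. Their median unique share was 87.1%, against 90.8% of 351 odorant receptor bins, 93.1% of 2509 gene-desert bins (without a protein-coding start in the bin or in the 5 bins on either side) and 96.5% of all autosomal bins. Sequence masked as repetitive took a median of 50.6% of vomeronasal and 31.5% of all bins, and GC content was 39.1% (V1R 40.02%, V2R 38.5%) against 41.5%.

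Coverage of the 204 bins was a median of 84.3% and 79.9% of the autosomal median in Erg KO libraries, 72.5% and 72.2% in the CreT control, and 75.2% and 70.0% in Erg fl/fl control libraries. Both Erg KO values lay above all 4 control values. Averaged over the 6 libraries, vomeronasal bins were 0.41 lower on the log2 scale than all autosomal bins and 0.13 lower than odorant receptor bins, and 0.10 higher than gene-desert bins, in 6 of 6 libraries each. For each of these, an exact sign-flip test over 6 libraries gave p = 0.0312, the smallest it can give, and 0.0369 after Benjamini-Hochberg adjustment over 13 such comparisons. The same p-values apply to every comparison of sets of bins below that is stated as in 6 of 6 libraries.

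Chromosomes fold into an active A and an inactive B compartment, and a compartment score above 0 marks A. In units of the standard deviation of a chromosome, the median score of vomeronasal bins was -0.93 and -0.96 in Erg KO, -0.90 and -0.89 in CreT and -0.85 and -0.77 in Erg fl/fl control libraries, against values between -0.15 and -0.07 for all autosomal bins. The receptor clusters were thus mostly B in every library. Mean scores were above 0 in 30 of 204 bins in Erg KO and 35 in control cells. In percent these were 14.7% and 17.2%, against 47.5% and 48.1% of all bins, 23.1% and 24.8% of odorant receptor bins and 3.91% and 4.22% of gene-desert bins. The score was below 0 in every library in 156 bins and above 0 in every library in 21. The difference from odorant receptor bins was 0.02 (3 of 6 libraries above 0, exact sign-flip p = 0.25), and scores were 0.26 higher than in gene-desert bins in 6 of 6 libraries.

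Of 16 clusters with 4 or more kept bins, 12 had a mean score below 0 in every library and 4 had both signs. The lowest was the Vmn2r66 to Vmn2r79 cluster on chromosome 7, at -1.23 ± 0.00349 in Erg KO (SD, n = 2) and -1.28 ± 0.0775 in control cells (SD, n = 4). The Vmn2r90 to Vmn1r-ps150 cluster was at -0.89 ± 0.00556 and -0.88 ± 0.0155. The Vmn2r19 to Vmn2r27 cluster on chromosome 6 was the highest, at 0.16 ± 0.265 and 0.32 ± 0.216. The Vmn1r32 to Vmn1r39 cluster stood at 0.06 ± 0.207 in Erg KO and 0.22 ± 0.115 in control cells. Vmn1r1, alone in its cluster on chromosome 1, started in an A bin (1.22 ± 0.0191 in Erg KO and 1.139 ± 0.119 in control cells), as did the pseudogenes Vmn1r-ps136 (1.396 and 1.37) and Vmn2r-ps91 (1.29 and 1.41).

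**Figure D2:**
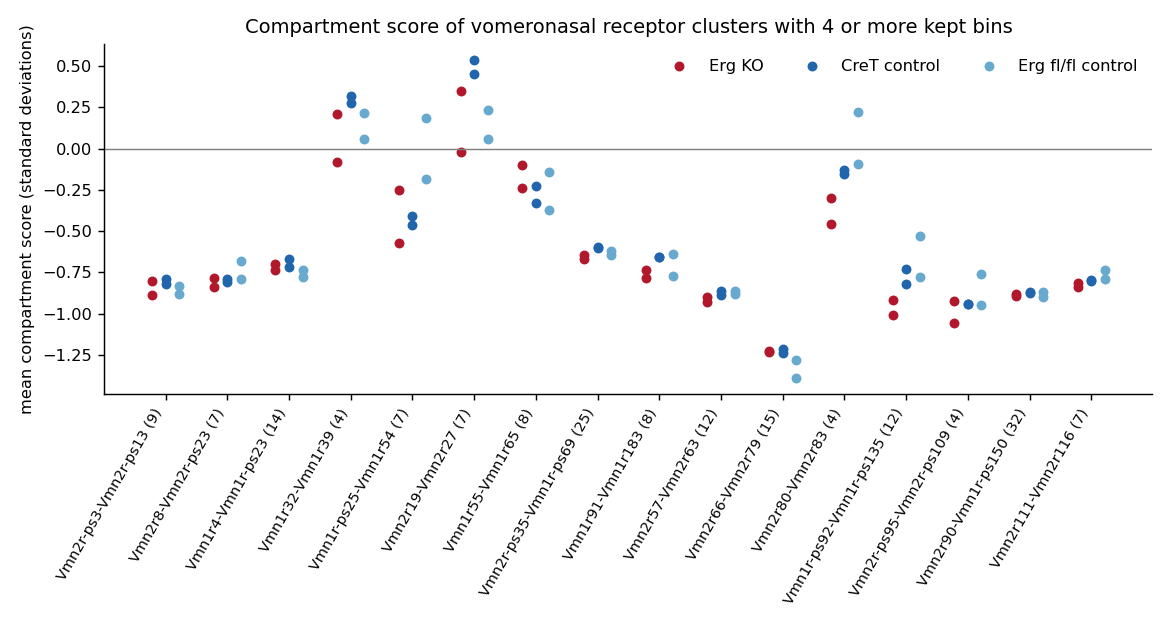
Mean compartment score (y axis, standard deviations of a chromosome, positive for A) of the 16 clusters with 4 or more kept bins, with the number of kept bins in brackets. Each point is a library, Erg KO left, CreT control in the middle and Erg fl/fl control right in each cluster. The 2 Erg KO points lie within or just below the control points in most clusters, and both lie below all 4 control points in 5 clusters, with the widest mean gap in Vmn2r80 to Vmn2r83.

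Contacts were set against the count expected from distance and from the coverage of both bins in the same library. Within clusters, leaving out contacts of a bin with itself, the ratio of observed to expected contacts over 1328 bin pairs was 1.08 and 1.137 in Erg KO, 1.21 and 1.19 in CreT and 1.18 and 1.25 in Erg fl/fl control libraries, from 19626 to 39406 read pairs a library. It was above 1 in every library, but without coverage in the expected count it was 0.547 to 0.742, below 1 in every library. Odorant receptor clusters had 0.996 and 1.03 in Erg KO, 1.09 and 1.07 in CreT and 1.07 and 1.104 in Erg fl/fl control libraries. The vomeronasal ratio was 1.11 times the odorant one, higher in 6 of 6 libraries, and without coverage in the expected count it was higher in 0 of 6 (means of 0.626 and 0.667). Inside clusters, those with both families included, pairs of V2R bins stood above pairs of V1R bins. The averages were 1.22 and 1.08, a ratio of 1.13, with V2R higher in 6 of 6 libraries. This order also turned without coverage in the expected count (0.596 and 0.647, V2R higher in 0 of 6). It held in 4 of 6 libraries with coverage from contacts between chromosomes. Of 22 clusters with at least 1 kept bin pair, 12 were above 1 and 7 below 1 in every library. Examples above 1 were Vmn2r90 to Vmn1r-ps150 at 1.25 ± 0.0889 in Erg KO and 1.41 ± 0.0455 in control cells, and Vmn1r55 to Vmn1r65 at 1.34 ± 0.147 and 1.39 ± 0.131 (SD, n = 2 and 4). Below 1 were Vmn1r-ps25 to Vmn1r54 at 0.874 ± 0.0906 and 0.785 ± 0.0351 and Vmn2r80 to Vmn2r83 at 0.804 ± 0.000433 and 0.918 ± 0.0358.

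Contacts between different clusters of a chromosome stood further above expectation. Over 2832 bin pairs the ratio was 1.77 and 1.84 in Erg KO, 2.00 and 2.04 in CreT and 2.04 and 2.08 in Erg fl/fl control libraries, against means of 1.44 in Erg KO and 1.37 in control cells for odorant receptor clusters. The vomeronasal ratio was 1.404 times the odorant one, higher in 6 of 6 libraries, but without coverage in the expected count it was 0.914 to 1.122 and higher in 1 of 6. Of 29 pairs of clusters with an expected count of at least 5 in every library, 24 were above 1 in every library and 0 below 1 in every library. Most of the highest lay on chromosome 7, which holds 16 of the 29 pairs. The contact of the Vmn1r55 to Vmn1r65 with the Vmn1r91 to Vmn1r183 cluster, which hold 14 and 78 V1R genes and 1 V2R gene, was 2.43 ± 0.357 in Erg KO and 3.01 ± 0.348 in control cells. All contacts of the Vmn1r91 to Vmn1r183 cluster, also those between chromosomes, rest on its 8 kept bins of 34, which lie at its ends. The Vmn2r-ps35 to Vmn1r-ps69 cluster, a mix of both families, had 2.47 ± 0.103 and 2.80 ± 0.186 with the Vmn1r91 to Vmn1r183 cluster. With the V2R cluster Vmn2r57 to Vmn2r63 it had 2.62 ± 0.0217 and 2.65 ± 0.240, and with the Vmn2r66 to Vmn2r79 cluster further along the chromosome 2.35 ± 0.179 and 2.62 ± 0.208. Without chromosome 7 the ratio over all other pairs was 1.303 ± 0.0127 in Erg KO and 1.55 ± 0.0854 in control cells, lower than with chromosome 7 but still above 1.

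Vomeronasal bins of different chromosomes also met more often than their coverage gave. The ratio over 16546 bin pairs was 1.41 and 1.39 in Erg KO, 1.49 and 1.47 in CreT and 1.41 and 1.42 in Erg fl/fl control libraries, from only 385 to 1225 read pairs a library. Without coverage in the expected count it was 0.972 to 1.114. With coverage, odorant receptor bins had 1.13 ± 0.0117 in Erg KO and 1.142 ± 0.0125 in control cells, and gene-desert bins 1.52 ± 0.0152 and 1.71 ± 0.0226. The vomeronasal value was 1.26 times that of odorant receptor bins and 0.868 times that of gene-desert bins, in 6 of 6 libraries each. Contacts of vomeronasal with odorant receptor bins averaged 1.19 in Erg KO and 1.26 in control cells, and those with gene-desert bins 1.34 and 1.45. The ratio was 1.58 for V1R with V1R bins and 1.36 for V2R with V2R bins on average (V1R higher in 6 of 6 libraries). This order did not hold with bins of at least 90% unique words (0.991 and 1.299, V1R higher in 1 of 6) or without clusters near the centromeric end (1.33 and 1.38, V1R higher in 2 of 6). The values for unique words rested on only 3 to 23 V1R and 13 to 50 V2R read pairs a library, too few to order the families. Pairs of the same family did not stand apart from mixed pairs. Their log2 difference was 0.02 ± 0.0975 (SD, n = 6), above 0 in 3 of 6 libraries, with an exact sign-flip p = 0.688.

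**Figure D3:**
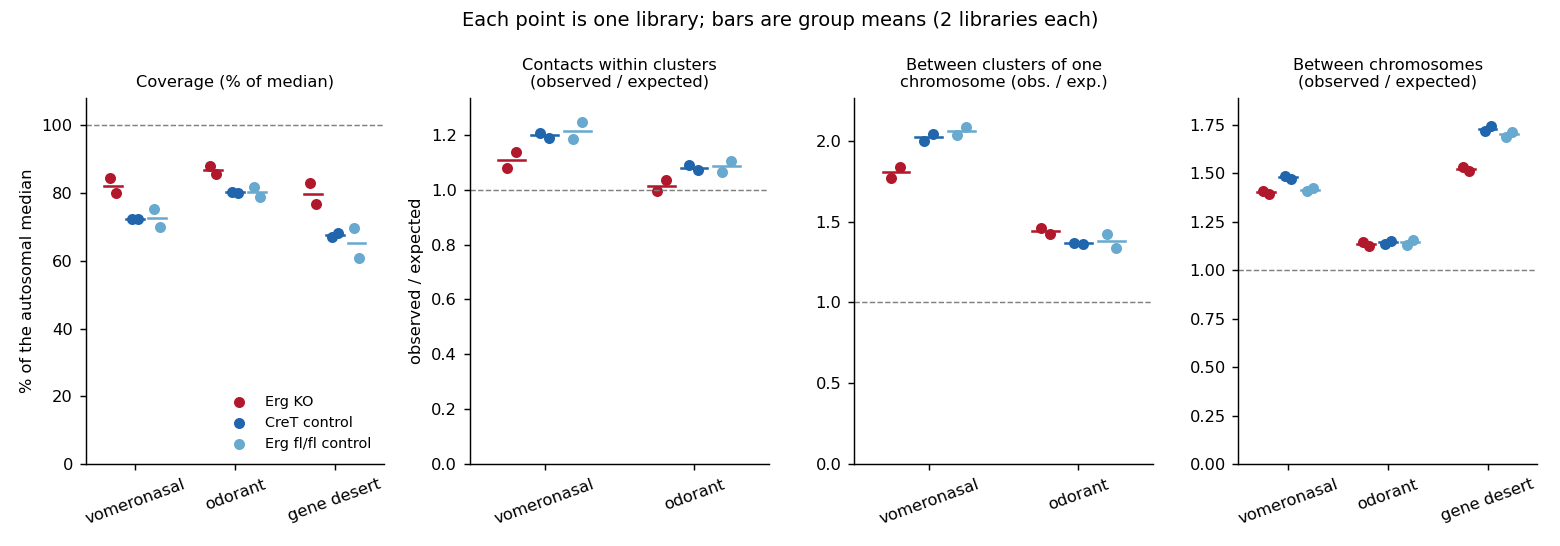
Coverage (percent of the autosomal median) and observed over expected contacts within clusters, between clusters of a chromosome and between chromosomes (y axes, linear from 0), for vomeronasal, odorant receptor and gene-desert bins. Points are libraries and bars group means, Erg KO left of CreT and Erg fl/fl controls, and the dashed lines mark 100% or a ratio of 1. With coverage in the expected count, vomeronasal bins sit above 1 in every library in the 3 contact panels, with both Erg KO points below the 4 control points within and between clusters of a chromosome.

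No pair of clusters of different chromosomes reached an expected count of 50 in every library, the highest in the shallowest library being 11.4. Read pairs were therefore summed over the 6 libraries, a step chosen after the values were seen, which gave 11 pairs of clusters with an expected sum of at least 50, of 609. All 11 were above 1 in the sum and 6 were above 1 in every library. The Vmn2r90 to Vmn1r-ps150 cluster of chromosome 17 took part in 9. Its contact with Vmn1r55 to Vmn1r65 of chromosome 7 was the highest, with 138 read pairs against 62.7 expected, a ratio of 2.199 (95% exact Poisson interval 1.85 to 2.60, which covers counting error only). The ratio was 2.22 in Erg KO and 2.18 in control cells. It met Vmn1r91 to Vmn1r183 at 1.93 (1.59 to 2.32) and the V1R cluster Vmn1r-ps92 to Vmn1r-ps135 of chromosome 13 at 1.91 (1.64 to 2.22). Its contact with Vmn2r19 to Vmn2r27, the highest in compartment score of the 16 clusters with 4 or more kept bins, was 1.02 (0.766 to 1.32) and with Vmn1r-ps25 to Vmn1r54 1.04 (0.789 to 1.36), both intervals holding 1. The high and low ends of this order differ beyond counting error, and neighbours in it do not.

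Erg KO and control libraries were then compared. Over 15 splits of 6 libraries into 2 and 4 an exact two-sided permutation test cannot give a p below 0.0667, so no such comparison can pass 0.05. Coverage of vomeronasal bins was 0.18 higher on the log2 scale in Erg KO than in control cells (-0.28 ± 0.0541 and -0.47 ± 0.0427, exact permutation p = 0.0667, 0.111 after Benjamini-Hochberg adjustment over 20 comparisons), a fold of 1.13. V2R bins differed by 0.21 and V1R bins by 0.15, at the same p. Against the CreT control the difference was 0.18 and against the Erg fl/fl control 0.18. The coverage of gene-desert bins differed more, so that vomeronasal minus gene-desert coverage was 0.08 lower in Erg KO cells (p = 0.2, exact permutation test). With the trend of coverage on GC content removed in each library, the difference of vomeronasal bins was 0.02 (p = 0.133, exact permutation test).

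Observed over expected contacts were lower in Erg KO than in control cells within clusters (-0.12 on the log2 scale) and between clusters of a chromosome (-0.18), both with no overlap of the groups and an exact permutation p of 0.0667. The direction depended on how coverage entered the expected count. Without coverage the differences were 0.31 and 0.18, and with coverage measured from contacts between chromosomes they were 0.04 and 0.01. Contacts between chromosomes differed by -0.05, with overlapping groups (exact permutation p = 0.2). Read ends of vomeronasal bins whose partner lay on another chromosome made up 35.5% and 38.0% in Erg KO, 28.6% and 30.8% in CreT and 28.4% and 26.3% in Erg fl/fl control libraries. That was above the share of all autosomal bins in every library, by 1.75 ± 0.176 percentage points in Erg KO and 2.87 ± 0.502 in control cells (exact permutation p = 0.0667).

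For compartment scores a limma model held terms for group and for sex, with p-values adjusted over all bins. In Erg KO against both controls, 0 of 204 vomeronasal bins rose and 4 (1.96%) fell, where 1.31% of all bins rose and 1.3% fell. The median change was -0.04, against 0.01 over all bins. An unadjusted limma p below 0.05 was reached by 47 of the 204 and by 6751 of all 23649 bins. Against each control alone, 0% of all bins and 0 vomeronasal bins passed in limma. Against CreT, 44 vomeronasal bins had an unadjusted limma p below 0.05, as did 5142 of all 23649 bins. Against Erg fl/fl these were 46 and 7289. The 4 bins that fell were those of Vmn2r81 and Vmn2r82 in the chromosome 10 cluster, the bin of Vmn1r189, Vmn1r191 and Vmn1r192 with 5 pseudogenes on chromosome 13, and the bin of Vmn1r33, Vmn1r34 and Vmn1r35 on chromosome 6. The bin of Vmn2r81 scored -0.87 and -0.71 in Erg KO, -0.54 and -0.53 in CreT and -0.44 and -0.06 in Erg fl/fl control libraries, a change of -0.46 ± 0.0546 (SE, limma adjusted p = 0.0442). The bin of Vmn2r82 scored -0.58 and -0.39, against -0.25, -0.26, -0.22 and 0.10, a change of -0.39 ± 0.0416 at the same adjusted p. The groups did not overlap in either, and both Erg KO libraries lay deeper in B. The Vmn1r189 bin changed by -0.42 ± 0.0512 without overlap, and the Vmn1r33 bin by -0.27 ± 0.0337 with overlap. The 4 calls ended with group alone in the model and with replicate number in place of sex, and 0 bins passed there. They also ended without CreT control replicate 1 or replicate 2. Without smoothing of the scores, the bins of Vmn2r81, Vmn2r82 and Vmn1r33 lost the call. Leaving out another library gave more calls. The share of all bins called in those runs is not given, so no shift of vomeronasal bins is read from them.

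Local contacts, the read pairs of a bin with bins 200 kb to 2 Mb away on its chromosome, were compared as counts with edgeR. In Erg KO against both controls 95 of 204 vomeronasal bins rose and 16 fell, where 34.4% of all bins rose and 33.3% fell. With group alone in the model 62 rose and 5 fell, and the counts also moved with 1 library left out. The share of all bins called in these runs is not given. The median change was 0.17 on the log2 scale, against 0.01 over all bins. Of V2R bins 63 of 116 rose and 11 fell (median 0.24), and of V1R bins 31 of 85 rose and 5 fell (median 0.14); the difference between the families was not tested. In CPM, which scales counts to the library total, the median vomeronasal bin had 29.9 and 28.2 in Erg KO, 25.8 and 25.6 in CreT and 27.4 and 25.2 in Erg fl/fl control libraries. Against the CreT control 91 rose and 8 fell, where 30.3% and 30.2% of all bins did, and against the Erg fl/fl control 82 rose and 19 fell, where 32.1% and 31.5% did. The CreT against the Erg fl/fl control gave 0 calls among the 204 and 0% of all bins in edgeR, with 27 of the 204 at an unadjusted p below 0.05. Odorant receptor bins had 113 that rose and 79 that fell of 351, and gene-desert bins 2249 and 48 of 2509 with a median of 0.44.

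The changes in local contacts followed GC content across the genome, with a Pearson correlation of -0.84 over all 23649 bins and -0.54 over the 204, as a description since bins share libraries. With offsets that remove the GC trend in each library, added after seeing the data, 14 vomeronasal bins rose and 31 fell with a median of -0.04, and 15.7% of all bins rose and 17.2% fell. The excess of bins that rose was not seen with these offsets, and the origin of the trend was not tested. The Vmn2r66 to Vmn2r79 cluster rose in 15 of 15 bins (median 0.49) and the Vmn2r90 to Vmn1r-ps150 cluster in 29 of 32 (median 0.40). With GC offsets 2 bins of each rose, with medians of 0.04 and 0.02. The Vmn1r4 to Vmn1r-ps23 cluster had 13 of 14 that rose (median 0.27) and the Vmn2r-ps35 to Vmn1r-ps69 cluster 13 of 25 (median 0.24), against 0 and 4 with GC offsets. No cluster had bins that passed in both directions, with 15 clusters holding bins that rose and 11 holding bins that fell.

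**Figure D4:**
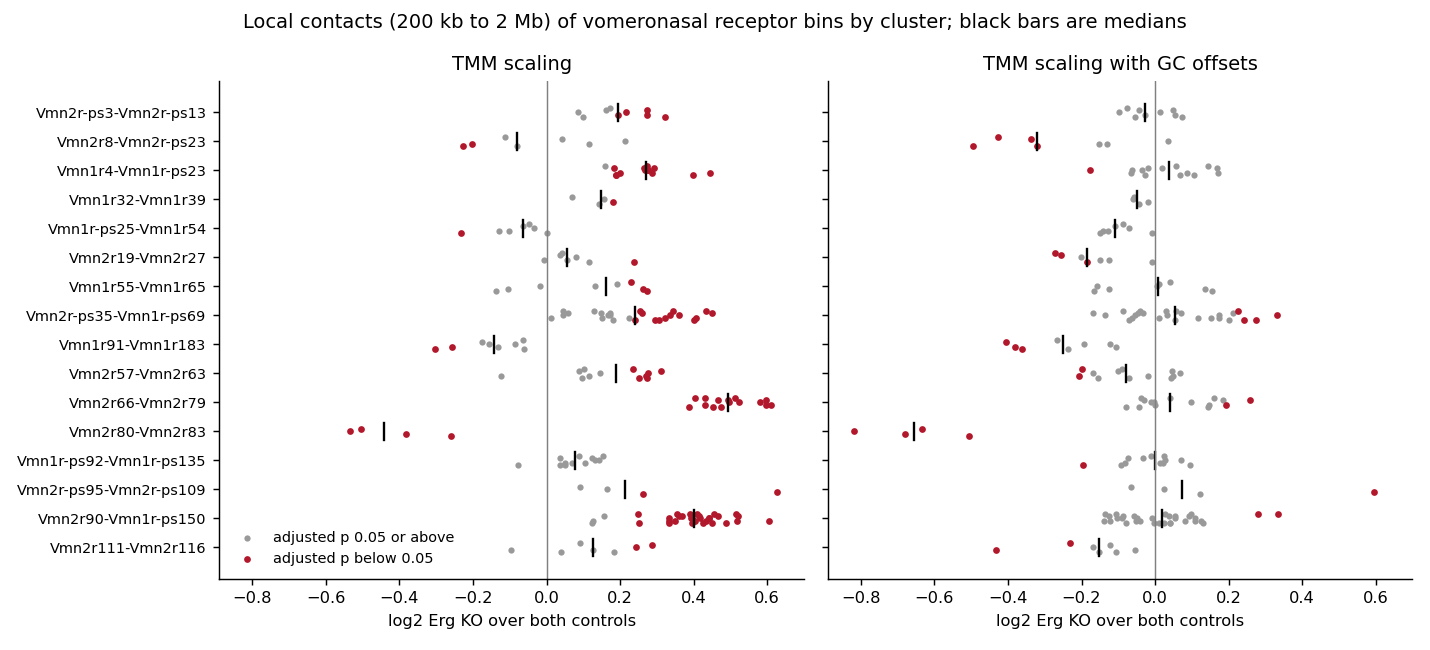
Change in local contacts (x axis, log2 of Erg KO over both controls) of every kept bin of the 16 clusters with 4 or more kept bins, with TMM scaling (left) and with added GC offsets (right). Points are bins, red where the edgeR adjusted p was below 0.05, and black bars are cluster medians. The Vmn2r66 to Vmn2r79 and Vmn2r90 to Vmn1r-ps150 clusters lie right of 0 on the left and around 0 on the right, and the 4 bins of the Vmn2r80 to Vmn2r83 cluster lie left of 0 in both panels.

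Among single bins that rose, the bin of Vmn2r67 and Vmn2r-ps68 had 28.6 and 26.6 CPM in Erg KO, 19.01 and 19.5 in CreT and 21.2 and 15.8 in Erg fl/fl control libraries, a log2 change of 0.61 ± 0.0955 (SE, edgeR adjusted p = 1.15e-05). The bin of Vmn2r97 and Vmn2r-ps118 had 36.7 and 36.2, against 27.1, 27.4, 26.7 and 22.8, a change of 0.51 ± 0.0781. The groups did not overlap in either, but these bins were chosen by the size of their change. These bins and that of Vmn2r-ps69 (0.60 ± 0.0936) kept the call in all 12 alternative settings, but with GC offsets the changes were 0.19 (Vmn2r67, edgeR adjusted p = 0.0396), 0.28 (Vmn2r97) and 0.26 (Vmn2r-ps69). Of the other 7 bins with the highest changes, those of Vmn2r-ps119, Vmn2r75, Vmn2r68, Vmn2r72, Vmn2r99 and Vmn2r-ps115 rose by 0.52 to 0.60 and lost the call with GC offsets. The bin of Vmn2r-ps104 (0.63 ± 0.131) had 12.6 and 7.50 CPM in Erg KO and 6.58 to 7.66 in control libraries, and without Erg KO replicate 1 its change was 0.08.

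Of the 10 bins with the strongest falls, 4 made up the whole Vmn2r80 to Vmn2r83 cluster (chr10:79099822-79499885). The bin of Vmn2r82 had 15.4 and 14.8 CPM in Erg KO, 21.5 and 18.3 in CreT and 19.8 and 25.8 in Erg fl/fl control libraries, a change of -0.53 ± 0.112 (edgeR adjusted p = 0.000254). The bin of Vmn2r83 had 18.0 and 19.3, against 24.0, 22.6, 24.2 and 31.3, a change of -0.50 ± 0.0972 (adjusted p = 0.000113), and that of Vmn2r81 19.8 and 18.1, against 22.6, 21.6, 25.2 and 29.4, a change of -0.38 ± 0.0989 (adjusted p = 0.00183). Both Erg KO libraries lay below all controls in these bins, and the calls held in all 12 alternative settings. The bin of Vmn2r80 changed by -0.26 ± 0.0898 with overlapping groups, and its call held in only 6 of the 12 settings. It was lost with group alone in the model, with DESeq2 and with contacts of 100 kb to 1 Mb. The call was also lost when Erg KO replicate 2 (-0.09), the first CreT library (-0.22) or the second Erg fl/fl library (-0.09) was left out. With GC offsets all 4 bins fell, with a median of -0.66. The cluster lies in a gene-rich stretch of chromosome 10. In the 10 bins before it, which hold 10 odorant receptor genes among 23 protein-coding starts, 10 fell (median -0.45, 7 with GC offsets), and in the 10 bins after it, with 61 starts that include Tcf3, Elane and Prtn3, 10 fell (median -0.64, 1 with GC offsets). Tcf3 encodes the B-lineage transcription factor E2A, and Elane and Prtn3 encode serine proteases of neutrophil granules. The cluster mean of the compartment score was -0.38 ± 0.111 in Erg KO and -0.04 ± 0.176 in control cells, in the 10 bins before it 0.36 and 0.55, and in the 10 bins after it 1.18 and 1.21.

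The strongest fall was that of the bin of Vmn2r125 and Vmn2r-ps159, a short bin of 52.0 kb near the end of chromosome 4 (chr4:156306042-156358037), with 5.62 and 7.73 CPM in Erg KO, 9.67 and 8.93 in CreT and 10.64 and 13.3 in Erg fl/fl control libraries. The change was -0.77 ± 0.119 (edgeR adjusted p = 1.07e-05) and held in all 12 alternative settings. The bin of Vmn2r-ps24 on chromosome 5, which also holds another protein-coding start, did so too, with 44.9 and 49.6 in Erg KO and 54.1 to 59.9 in control libraries, a change of -0.30 ± 0.0611. The remaining 4, the bins of Vmn1r91, Vmn1r185, Vmn1r179 to Vmn1r181 and Vmn2r118, fell by 0.25 to 0.30 and lost the call in 4 to 7 of the 12 settings.

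Contacts between single bins were tested with edgeR after loess normalization over abundance. Of 431577 bin pairs that passed the filters, 1237 joined vomeronasal bins. Among these 297 rose and 0 fell in Erg KO against both controls, where 6.49% of all bin pairs rose and 6.26% fell. The median change was 0.40 on the log2 scale, against 0.00 over all pairs, and 511 had an unadjusted p below 0.05. In DESeq2 58 rose and 0 fell. Against the CreT control 171 rose and 0 fell (3.68% and 3.48% of all pairs), and against the Erg fl/fl control 180 rose and 0 fell (4.24% and 5.17%), with 425 and 408 at an unadjusted edgeR p below 0.05. The CreT against the Erg fl/fl control gave 0 vomeronasal calls in edgeR (0% of all pairs rose and 0.000232% fell), with 61 of the 1237 at an unadjusted p below 0.05. The 3129 tested pairs with a vomeronasal bin at 1 end gave 124 that rose and 69 that fell. Outside the receptor clusters, 6181 gene-desert pairs rose and 12 fell of 18929, with a median of 0.53, and 384 odorant receptor pairs rose and 15 fell of 2470.

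The share of pairs that passed fell with distance, for vomeronasal as for all pairs, while the median change did not fall in step. Of 204 contacts of a bin with itself 129 rose (median 0.39), where 33.4% of all such contacts did (median 0.17), and of 1010 pairs within a cluster 168 rose. Of 22 pairs between clusters of a chromosome 0 rose (4 at an unadjusted edgeR p below 0.05), and the 1 pair of different chromosomes that could be tested did not pass. At 1 to 4 bins apart 133 of 463 vomeronasal pairs rose (median 0.43), where 12.8% of all pairs at that distance did (median 0.09). At 5 to 9 bins these were 28 of 312 (median 0.44) and 4.54% (median -0.01), and at 10 to 20 bins 7 of 229 (median 0.29) and 1.85% (median -0.08). The 22 pairs between clusters had a median of 0.33. The median pair within a cluster had 26.5 and 24.3 normalised read pairs in Erg KO, 19.9 and 20.1 in CreT and 20.8 and 17.3 in Erg fl/fl control libraries, with no overlap of the groups. V2R pairs rose in 185 of 655 (median 0.46), V1R pairs in 94 of 415 (0.32) and mixed pairs in 18 of 167 (0.37).

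With offsets for the GC content of bin pairs, 12 vomeronasal pairs rose with a median of 0.07, where 1.46% of all pairs rose and 0.984% fell. The count also rested on both Erg KO libraries. It came to 0 when Erg KO replicate 1 was left out and to 30 when Erg KO replicate 2 was, and leaving out the first CreT library gave 182 and the second Erg fl/fl library 105, where a lone Erg KO library is assumed to vary like the other groups.

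**Figure D5:**
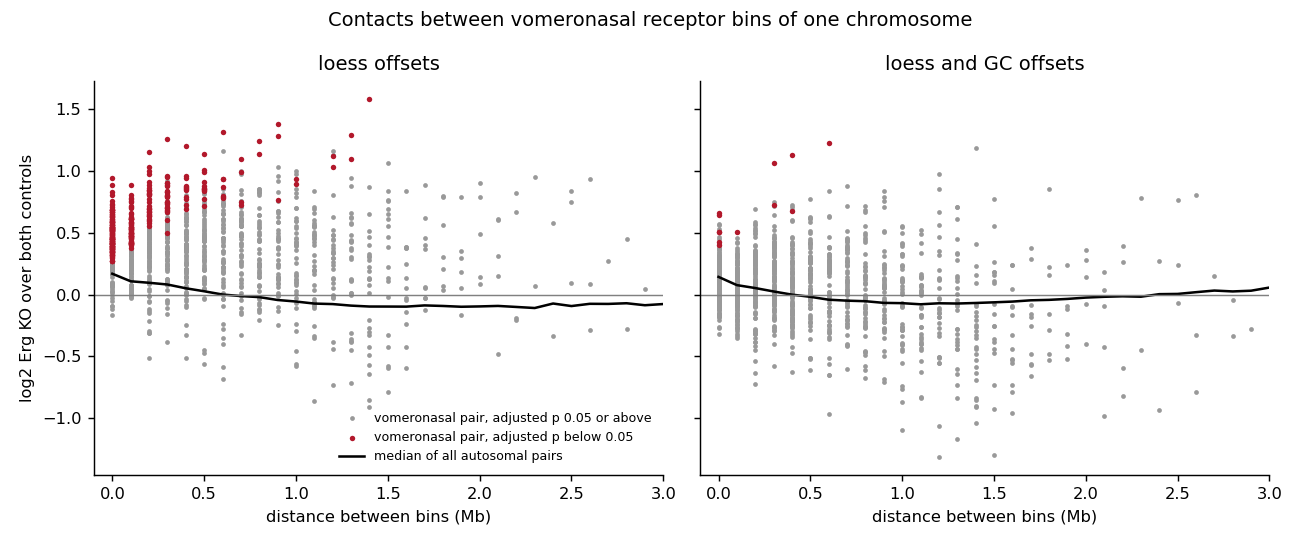
Change in contacts (y axis, log2 of Erg KO over both controls) of tested pairs of vomeronasal bins against the distance between the bins (x axis, Mb, shown to 3 Mb), with loess offsets (left) and loess and GC offsets (right). Points are bin pairs, red where the edgeR adjusted p was below 0.05, and the black line is the median of all autosomal pairs. Most vomeronasal pairs lie above the black line on the left, where 297 passed, and around it on the right, where 12 passed.

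The chromosome 7 cluster Vmn2r66 to Vmn2r79 had 31 of 95 pairs that rose besides 15 of 15 contacts of a bin with itself, and the chromosome 17 cluster Vmn2r90 to Vmn1r-ps150 had 73 of 376 and 28 of 32. The 10 pairs with the largest changes are named, a choice made after the values were seen. The strongest change joined the bin of Vmn2r99 to that of Vmn1r227 and Vmn1r228 in the chromosome 17 cluster, 1.4 Mb apart. It had 20.3 and 22 normalised read pairs in Erg KO, 11.2 and 6.46 in CreT and 7.34 and 3.78 in Erg fl/fl control libraries, a change of 1.58 ± 0.387 (SE, edgeR adjusted p = 0.00185). The best-covered of the named pairs joined the bin of Vmn2r67 to that of Vmn2r-ps69, 0.200 Mb apart, with 52.6 and 61.1 in Erg KO, 19.8 and 30.2 in CreT and 18.5 and 28.2 in Erg fl/fl control libraries, a change of 1.15 ± 0.235 (adjusted p = 0.000143). Among V1R genes the bins of Vmn1r57 and of Vmn1r63 with Vmn1r64, 0.600 Mb apart on chromosome 7, had 32.0 and 22.1, against 11.1, 12.2, 13.5 and 10.11, a change of 1.31 ± 0.319 (adjusted p = 0.00172). In all 10 named pairs both Erg KO libraries lay above all controls, but the pairs were chosen by the size of this change. None of the 10 calls held in all 12 alternative settings, and DESeq2 gave no adjusted p for any of them. The Vmn2r80 to Vmn2r83 cluster had 0 of 6 pairs and 1 of 4 contacts of a bin with itself that rose, and none that fell.

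Other genes of vomeronasal signalling were read from the bin in which they start, for a list of 23 genes. Compartment calls were 0 of 23 in limma, and local contacts rose for 4 genes and fell for 15, where 34.4% and 33.3% of all bins did. The 23 genes start in 20 bins, so genes that share a bin repeat its value in these counts. Trpc2, the cation channel that opens on pheromone binding in vomeronasal neurons, lay in A in both groups (1.498 ± 0.0187 in Erg KO and 1.51 ± 0.0322 in control cells). So did Gnai2, the G-protein subunit of V1R neurons (1.51 and 1.49), while Gnao1, that of V2R neurons, scored 0.46 ± 0.108 and 0.36 ± 0.114. Local contacts of Trpc2 changed by -0.45 ± 0.0606 and those of Gnai2 by -0.76 ± 0.078. The 4 genes that rose were the formyl peptide receptors Fpr-rs3, Fpr-rs4, Fpr-rs6 and Fpr-rs7, which are also expressed in vomeronasal neurons and lie within the span of the Vmn2r90 to Vmn1r-ps150 cluster. They scored -0.84 to -1.03 in Erg KO and -0.83 to -1.05 in control cells, and changed in local contacts by 0.33 to 0.43. Fpr-rs6 and Fpr-rs7 share a bin. The bins of Fpr-rs3 and Fpr-rs4 also hold vomeronasal receptor genes and were counted above, and with GC offsets they changed by 0.13 and -0.12. The H2-M genes, class I molecules that associate with V2R receptors, lay at the MHC on chromosome 17 with scores from -0.43 to 1.08 in Erg KO and -0.24 to 1.08 in control cells. Bcl11b and Lhx2, transcription factors of vomeronasal and olfactory sensory neurons, scored 0.32 and 1.25 in Erg KO and 0.39 and 1.15 in control cells.

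The labelled cell type can be checked here only through the compartments of marker genes, since this series holds Hi-C libraries alone. Of 10 B-lineage genes, which start in 8 bins, 9 lay in A in both groups. The 1 exception, Ebf1, scored -0.67 ± 0.116 in Erg KO and -0.43 ± 0.335 in control cells. Of 10 genes of stromal cells, the type of the OP9 feeders, 6 lay in A in both groups, from a median of 0.32 in Erg KO and 0.05 in control cells. Col1a2 and Prrx1 were the 2 whose score rose in Erg KO cells (0.32 ± 0.0333 and 0.37 ± 0.0357, limma adjusted p = 0.044 each). The part of feeder cells in the values of vomeronasal bins was not tested.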

How the data were processed

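The deposited files hold raw counts of read pairs for pairs of regions, which the authors made from in situ Hi-C reads aligned to mm10, one set of counts a library, in bins of whole GATC restriction fragments of about 100 kb; no value had been normalised. The members, gene lists and tests were chosen with earlier results of these data known. Receptor genes were placed with GENCODE M21, and bins with coverage of 0.3 to 3 times the autosomal median were kept. Expected counts came from distance and the coverage of both bins (between chromosomes, from coverage between chromosomes). Compartment scores, smoothed over 3 bins, were tested with limma 3.58.1, and local contacts (200 kb to 2 Mb, TMM scaling) and bin pairs (summed count of at least 10, abundance over 5 times that between chromosomes, loess offsets) with edgeR 4.0.16 quasi-likelihood, with group and sex as terms and Benjamini-Hochberg adjustment over all features at 0.05. DESeq2 1.42.0 was an alternative. Coverage and contact ratios were compared by exact permutation or sign-flip tests. Bins were named where they were among the 10 largest changes in each direction that passed with the same sign against each control, and the 5 with the lowest and highest coverage and the 5 with the lowest unique share were named. The tests were tried on simulated data first. The methods call the libraries of a genotype biological duplicates, and those of 2 groups differ in sex. Intervals cover counting error only.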

Additional observations from a re-analysis of the deposited data

Results flagged for a closer look

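The share of read ends whose partner lay on another chromosome exceeded that of all autosomal bins by 3.62 percentage points in vomeronasal bins of Erg fl/fl control replicate 2, the shallowest library. The other 3 control libraries had 2.56 to 2.69, and the gap took 0.870 of the range of the 4 controls. This was 1 of 20 quantities examined for a control library that stands apart, and chance gives about 1 in 20.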

How the results depend on the processing

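Coverage of vomeronasal bins stayed higher in Erg KO cells under every alternative run, with 0.142 to 0.219 (log2) when 1 library was left out. The difference was far smaller with the GC trend removed, as given above, and for vomeronasal minus gene-desert coverage it was -0.0850. Contacts within and between clusters of a chromosome were lower by the main expected count, but the differences were 0.306 and 0.177 without coverage and 0.0409 and 0.0101 with coverage from contacts between chromosomes. With 1 library left out they were -0.162 to -0.0861 and -0.204 to -0.153. Contacts between chromosomes differed by 0.0357 with bins of at least 90% unique words and by 0.0850 without coverage (leaving out 1 library, -0.0603 to -0.0333). The same-family difference was -0.0213 without coverage and -0.199 with unique bins, and -0.0135 to 0.0456 with 1 library left out. The difference from odorant receptor bins was 0.316 to 0.334 with 5 libraries, where the exact sign-flip p cannot fall below 0.0625. Compartment falls numbered 0 with group alone, 0 with the replicate block and 9 without smoothing, and 0 to 61 with 1 library left out (0 to 9 rises). Local contacts rose in 62 and fell in 5 bins with group alone, fell in 9 with DESeq2, and rose in 14 and fell in 31 with GC offsets; leaving out 1 library gave 72 to 103 rises and 9 to 26 falls. The bin of Vmn2r72 had -0.00411 with GC offsets. Bin pairs that rose numbered 140 with group alone, 58 with DESeq2 (877 without an adjusted p), 12 with GC offsets and 0 to 300 with 1 library left out. Except with GC offsets, the shares of all bins or bin pairs called in the same runs are not given beside these counts. The cause of the shifts was not tested.

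Deviations of same-numbered local contacts correlated at -0.173 (Erg KO with CreT), 0.540 (Erg KO with Erg fl/fl control) and -0.388 (CreT with Erg fl/fl control). Replicate numbers thus did not pair the libraries across all 3 groups. In Erg KO and in the Erg fl/fl control replicate 1 was female and replicate 2 male, and the source of their shared deviation was not tested. With the replicate block, local contacts rose in 68 and fell in 8 bins and 140 bin pairs rose. With the replicate block the coverage difference was 0.180, with an exact permutation p of 0.111.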

Other observations

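Of the 5 bins left out because they also hold an odorant receptor gene, local contacts of the bin of Vmn2r76 changed by 0.58 (edgeR adjusted p = 1.84e-05) and those of the bin of Vmn2r-ps92 by -0.57 (edgeR adjusted p = 2.48e-07) in Erg KO against both controls.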
